A study of Danio rerio with 35 samples.

Results

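Cells sorted as Olig2+ from the adult zebrafish telencephalon were compared with the whole tissue they came from. The comparison used 4 libraries of wildtype Olig2+ cells and 5 libraries of young wildtype telencephalon, which are 9 of the 35 libraries of the series. They were chosen by their labels alone, and all were given as 5 months of age. Of the gene identifiers, 23480 were listed for both kinds of library, and 17658 of them passed the filter on low values and were tested. Olig2+ cells were isolated by fluorescence-activated cell sorting from dissociated, pooled telencephali of the Tg(olig2:DsRed) line, in which regulatory sequence of olig2 drives the red fluorescent protein DsRed, with gates set on AB/EK fish. The telencephalon libraries came from undissociated tissue of grna+/+;grnb+/+ fish. All 9 libraries thus carried wildtype alleles of both granulin genes. The same measure was taken in grna-/-;grnb-/- fish, with 4 libraries of mutant Olig2+ cells and 5 of young mutant telencephalon, and a second sorted population served for comparison, with 3 libraries of wildtype Mpeg1+ cells (microglia and macrophages of the Tg(mpeg1:mCherry) line). Both were also labelled 5 months. Sorted cells and tissue differed in dissociation, sorting and pooling, the tissue libraries being of single telencephali. They also differed in the RNA kit (PicoPure for cells and RNeasy for tissue), in the amount of RNA and in the fish line. These differences cannot be told apart from the cell population, and pooling can also change the spread between libraries.

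The wildtype Olig2+ libraries held 37100055 to 59252761 reads in genes and the young wildtype telencephalon libraries 15471586 to 29426822. Mutant Olig2+ libraries held 6375992 to 21817841 reads, young mutant telencephalon libraries 13891845 to 23646597 and wildtype Mpeg1+ libraries 6107892 to 29077552. Levels are given as CPM, the reads of a gene scaled by the total of its own library, and fold changes as differences of log2(CPM + 1), which understates the change of genes with low values. A gene was called when the adjusted p of limma's moderated test (Benjamini-Hochberg) was at most 0.05 and the change was at least 2-fold. Cells and tissue were scaled in separate tables by the authors, and the factor of each library cancels in CPM. The p-values measure only the spread between these libraries. Among the 4 Olig2+ libraries, 1 and 3 were the most alike, and library 2 stood apart in heat shock and immediate early transcripts. Over all genes library 4 had the lowest Spearman correlations with the others (0.93 to 0.94), while library 2 had 0.955 and 0.956 with libraries 1 and 3. Mpeg1+ library 2 also stood apart, with 8.30% mitochondrial reads against 1.49 and 1.61% in Mpeg1+ libraries 1 and 3. Its Spearman correlations with them were 0.67 and 0.73, while theirs with each other was 0.90. All comparisons with Mpeg1+ cells include it unless stated otherwise. Reads of the 12 genes named as mitochondrially encoded made up 1.05, 2.38, 1.37 and 2.86% of the 4 Olig2+ libraries, against 1.25% ± 0.116 (SD, n = 5) of telencephalon libraries, a difference that did not pass an exact two-sided permutation test (p = 0.222, smallest possible p = 0.0159). All mitochondrial shares given here count these 12 genes only. Identifiers without a name were not counted, so any mitochondrial RNA among them is missing from the shares and from this test.

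Olig2 is a basic helix-loop-helix transcription factor that directs progenitors towards the oligodendrocyte lineage, and in the embryonic ventral forebrain it is also made by progenitors that give rise to neurons. Oligodendrocyte precursors express Sox10, and as they mature they switch on the proteins of the myelin sheath, among them myelin basic protein and proteolipid protein. Zebrafish Olig2-expressing cells of the telencephalon lie mainly in the parenchyma, while the ventricular surface is lined by ependymoglia, the radial glia-like stem cells of the adult fish brain.

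The labelled cell type was checked first on 5 oligodendroglial genes, whose levels went in different directions. The transcript of the sorted gene itself, olig2 (ENSDARG00000040946), was at 85.8, 47.4, 36.0 and 57.8 CPM in wildtype Olig2+ cells, against 31.5, 28.7, 33.0, 29.6 and 33.6 CPM in young wildtype telencephalon. All 4 Olig2+ libraries lay above all 5 telencephalon libraries, but the difference stayed below 2-fold and olig2 was not called (log2 fold change 0.77 ± 0.22 (SE), limma adjusted p = 0.0162), although DESeq2 called it higher. The gene for the lineage transcription factor Sox10, sox10 (ENSDARG00000077467), was at 3.09, 2.83, 1.502 and 2.50 CPM in Olig2+ cells, against 25.4, 21.5, 16.4, 21.6 and 21.2 CPM in telencephalon. It was thus lower in every Olig2+ library and was called (log2 fold change −2.69 ± 0.19 (SE), limma adjusted p = 1.04e-05). For cnp (ENSDARG00000070822), which encodes the enzyme CNPase, the levels were 248, 209, 231 and 228 CPM in Olig2+ cells, against 98.5, 91.1, 112, 110.1 and 122 CPM in telencephalon. It was the 1 member of the 5 that was called higher (log2 fold change 1.098 ± 0.12 (SE), limma adjusted p = 0.000113). Myelin basic protein a, mbpa (ENSDARG00000036186), was at 159.6, 272, 116 and 155 CPM in Olig2+ cells, against 962, 495, 823, 648 and 1060 CPM in telencephalon. The groups did not overlap, and mbpa was lower in Olig2+ cells (log2 fold change −2.19 ± 0.27 (SE), limma adjusted p = 0.000193). The tetraspanin gene tspan2a (ENSDARG00000003754) was at 190, 214, 209 and 193 CPM in Olig2+ cells, against 298, 289, 356, 310.1 and 313 CPM in telencephalon, lower in every Olig2+ library but by less than 2-fold (log2 fold change −0.63 ± 0.11 (SE), limma adjusted p = 0.00131). Of the 5 genes, 1 was therefore called higher (2 by DESeq2), where 9.07% of all genes tested were, and 2 lower, where 9.16% were, and the groups were apart for all 5, where 35.1% of all genes had groups that did not overlap. The set as a whole was thus not higher in the sorted cells than in whole tissue, and the cells are named here by the sort, not as a cell type.

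**Figure D1:**
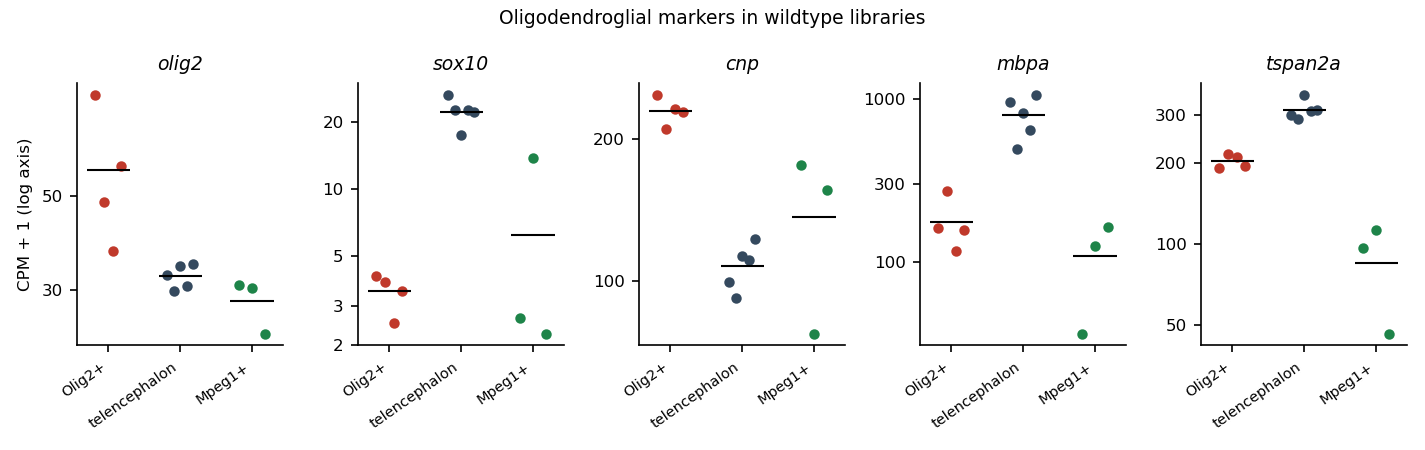
CPM + 1 on a log axis of 5 oligodendroglial genes in each wildtype library (points; bars, group means) of Olig2+ cells, telencephalon and Mpeg1+ cells. The 4 Olig2+ libraries lie above telencephalon for olig2 and cnp and below it for sox10, mbpa and tspan2a.

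In mutant fish the same measure gave 0 of these 5 called higher by limma's test, where 14.6% of all genes were, and 3 lower, where 29.7% were. At an unadjusted p under 0.05 and by edgeR 0 were higher too. Here olig2 itself was lower in the sorted cells, at 13.02, 33.2, 7.91 and 15.5 CPM in mutant Olig2+ cells, against 34.3, 36.9, 41.1, 40.9 and 31.9 CPM in young mutant telencephalon (log2 fold change −1.22 ± 0.33 (SE), limma adjusted p = 0.00844). The difference between the genotypes was 1.99 ± 0.41 on the log2 scale for olig2 (limma adjusted p = 0.000851) and 1.36 ± 0.22 for cnp (adjusted p = 7.4e-05), whereas it was 0.28 ± 0.53 for sox10 and 0.04 ± 0.41 for mbpa, neither of which was called. Set against wildtype Mpeg1+ cells, which share the Olig2+ libraries with the main comparison, tspan2a was the 1 member of the 5 called higher in Olig2+ cells, where 23.0% of all genes were (log2 fold change 1.34 ± 0.35, limma adjusted p = 0.0132). There olig2 averaged 56.7 CPM in Olig2+ cells and 27.2 CPM in Mpeg1+ cells (log2 fold change 0.97 ± 0.36, limma adjusted p = 0.0602) and was not called. Nor was cnp called there, at means of 229 CPM in Olig2+ cells and 136 CPM in Mpeg1+ cells (log2 fold change 0.83 ± 0.34, limma adjusted p = 0.081).

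Across all genes, 1602 were higher in wildtype Olig2+ cells (9.07% of those tested) and 1618 were lower (9.16%), the median log2 fold change being −0.13. At 4-fold or more, 206 were higher (1.17%) and 305 lower (1.73%). On the recovered reads edgeR called 2611 genes higher and 1444 lower, so that 64.4% of its calls were higher against 49.8% of limma's, and DESeq2 called 2725 higher and 1504 lower. With telencephalon libraries 2 and 3 as the only tissue, 905 of 17484 genes were higher and 799 lower. Without Olig2+ libraries 1 and 3 these were 1118 and 1451 of 17587. List counts given below under such settings move with these totals and are to be read beside them. Since bulk libraries were compared, a lower level can mean fewer cells of a type or less RNA per cell, and these cannot be told apart.

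**Figure D2:**
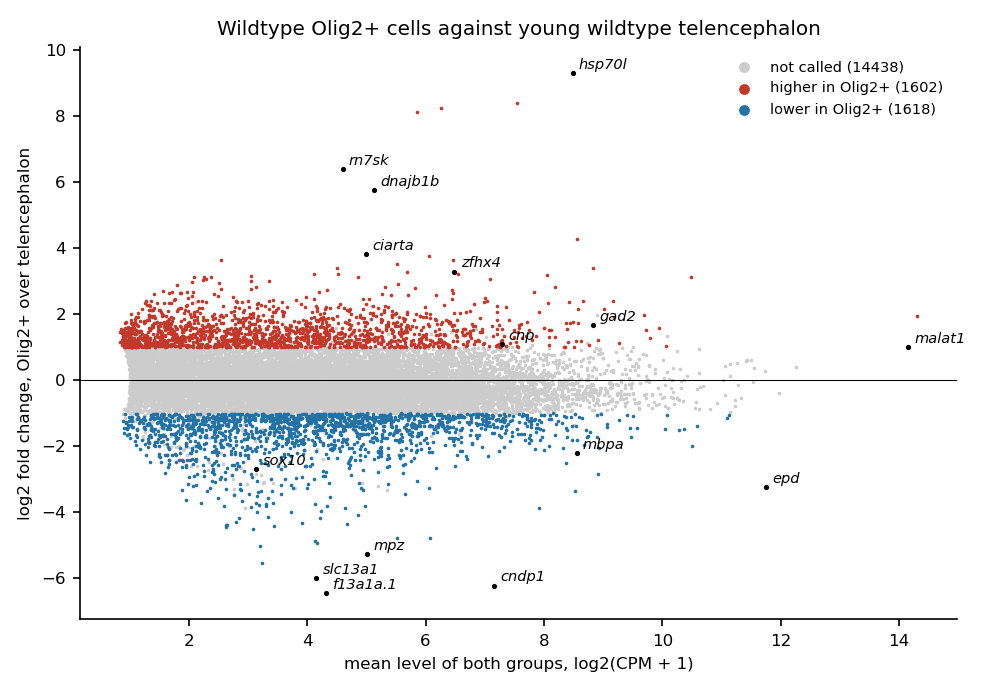
Each point is 1 of 17658 genes; the x axis is the mean of both groups' levels in log2(CPM + 1) and the y axis the log2 fold change of wildtype Olig2+ cells over young wildtype telencephalon. The 1602 genes called higher and the 1618 called lower are in colour, with hsp70l at the top and f13a1a.1 at the bottom.

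Among genes of myelin and mature oligodendrocytes, more were lower than higher in the sorted cells. Of 58 members tested, 4 were higher and 19 lower, against 9.07% and 9.16% of all genes, and 35 were not called. The median of their log2 fold changes was −0.59 against −0.13 over all genes, and the groups were apart for 31, against 35.1% of all genes. The largest change was that of mpz, which encodes myelin protein zero, a major protein of central myelin in fish, at 2.49, 3.61, 2.70 and 9.04 CPM in Olig2+ cells, against 178, 136, 189, 198 and 252 CPM in telencephalon (log2 fold change −5.25 ± 0.30 (SE), limma adjusted p = 4.8e-06). Each Olig2+ library lay far below each telencephalon library. The proteolipid protein gene plp1b was at 19.6, 13.8, 18.3 and 31.1 CPM in Olig2+ cells, against 209, 132, 185, 217 and 268 CPM in telencephalon (log2 fold change −3.25 ± 0.25 (SE), limma adjusted p = 1.51e-05), again with wide separation of the groups. A smaller difference was measured for mag, the myelin-associated glycoprotein, at 32.2, 49.0, 22.1 and 12.7 CPM in Olig2+ cells, against 95.0, 109, 108, 85.8 and 72.6 CPM in telencephalon (log2 fold change −1.80 ± 0.32 (SE), limma adjusted p = 0.00141). Also lower were tmem98 (−3.80 ± 0.26), a membrane protein that binds the myelin regulatory factor in mammals, the tetraspanin gene cd9b (−2.93 ± 0.17), the tight junction gene of the myelin sheath cldn11a (−2.85 ± 0.27), ndrg1a (−3.11 ± 0.26), whose human counterpart is needed to maintain myelin, and ugt8 (−1.89 ± 0.19), the enzyme that makes galactosylceramide. Beside cnp, the members that were higher were nfasca (1.22 ± 0.20), a neurofascin that is found on neurons and glia, the anillin gene anln (1.22 ± 0.26) and the BIN1 gene ENSDARG00000042114 (1.66 ± 0.24). The summed level of the list was 1552 to 1956 CPM in Olig2+ cells and 2599 to 3603 CPM in telencephalon. In mutants, 22 of 57 members were lower and 6 higher, where 29.7% and 14.6% of all genes were.

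Genes of oligodendrocyte precursors were divided. Of 43 tested, 8 were higher and 6 lower, where 9.07% and 9.16% of all genes were. Their median change was 0.06 on the log2 scale. Their summed level was 3471 to 4248 CPM in Olig2+ cells and 3940 to 4157 CPM in telencephalon. Among those that were higher, sox6, a SoxD transcription factor that keeps precursors undifferentiated in mouse and is also made in interneurons, was at 157, 138, 179 and 165 CPM in Olig2+ cells, against 58.7, 60.8, 57.2, 62.2 and 60.8 CPM in telencephalon (log2 fold change 1.39 ± 0.12 (SE), limma adjusted p = 2.47e-05). The zinc finger gene myt1b was at 80.2, 78.3, 101 and 73.0 CPM in Olig2+ cells, against 24.3, 20.2, 29.0, 28.2 and 27.9 CPM in telencephalon (log2 fold change 1.65 ± 0.16 (SE), limma adjusted p = 4.63e-05). Both genes had tight groups that did not overlap. Neurocan, NCAN, was at 114, 68.9, 79.6 and 24.0 CPM in Olig2+ cells, against 12.1 to 16.9 CPM in telencephalon (log2 fold change 1.98 ± 0.36 (SE), limma adjusted p = 0.00175), with Olig2+ library 4 the lowest of the sorted libraries and still above the tissue. Also higher were tcf7l2 (1.84 ± 0.26), a Wnt effector of differentiating oligodendrocytes, and the chromatin remodeller gene chd7 (1.14 ± 0.15). On the other side, gpr17, the receptor that marks committed precursors, was at 0.691, 0.916, 0.540 and 0.0266 CPM in Olig2+ cells, against 5.88, 4.75, 4.35, 6.33 and 5.74 CPM in telencephalon (log2 fold change −2.08 ± 0.21 (SE), limma adjusted p = 6.28e-05), low in all libraries and lower in each sorted one. The sulfatase gene SULF2 was also lower (−1.55 ± 0.21). The precursor receptor gene pdgfra, at 14.4, 18.4, 11.97 and 3.16 CPM in Olig2+ cells, against 21.6, 12.02, 17.5, 16.5 and 17.9 CPM in telencephalon, had overlapping groups and was not called (log2 fold change −0.66 ± 0.39 (SE), limma adjusted p = 0.19). For olig1, the neighbouring family member of olig2, the difference was −0.99 ± 0.22 (adjusted p = 0.00495), just short of 2-fold, and it was called when any of Olig2+ libraries 3 or 4 or telencephalon libraries 1 or 2 was left out (log2 fold change −1.03 to −1.11). The genes olig1, pdgfra and mag were picked after their values had been seen.

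Genes of GABAergic neurons, the inhibitory neurons that in the forebrain arise mainly ventrally, were more often higher than lower. Of 39 tested, 18 were higher and 2 lower, against 9.07% and 9.16% of all genes, and the groups were apart for 30, against 35.1% of all genes, with a median change of 0.93 on the log2 scale. The summed level was 7998, 6504, 7384 and 6998 CPM in the 4 Olig2+ libraries, against 4014 to 4623 CPM in telencephalon. All 4 sorted libraries lay above all 5 tissue libraries. The homeobox gene zfhx4 showed the largest change, at 320.3, 169, 376 and 258 CPM in Olig2+ cells, against 35.5, 23.2, 16.1, 33.2 and 29.4 CPM in telencephalon (log2 fold change 3.30 ± 0.27 (SE), limma adjusted p = 2.33e-05). The glutamate decarboxylase gene gad2, which makes the transmitter GABA, was at 1254, 658, 1058 and 405 CPM in Olig2+ cells, against 200.2, 193, 280.5, 297 and 258 CPM in telencephalon (log2 fold change 1.67 ± 0.30 (SE), limma adjusted p = 0.00156), with Olig2+ library 4 lowest among the sorted libraries. The Dlx homeobox genes specify ventral forebrain interneurons, and dlx5a was at 268, 180.4, 291 and 508 CPM in Olig2+ cells, against 73.7, 86.6, 60.1, 70.9 and 54.2 CPM in telencephalon (log2 fold change 2.08 ± 0.26 (SE), limma adjusted p = 0.000209). In the same direction went dlx2a (1.499 ± 0.16), DLX1 (1.45 ± 0.15) and DLX6 (1.61 ± 0.20). LHX6 (ENSDARG00000006896), a factor of interneurons from the medial ganglionic eminence in mouse, was at 126.3, 102, 107 and 119 CPM in Olig2+ cells, against 48.7, 62.4, 47.8, 44.7 and 36.0 CPM in telencephalon (log2 fold change 1.25 ± 0.16 (SE), limma adjusted p = 0.00025). The forkhead gene foxp4 (1.71 ± 0.18), the LIM homeobox gene LHX8 (1.73 ± 0.24) and the calcium-binding protein gene calb1 (1.84 ± 0.33) were higher as well. The vesicular GABA transporter gene slc32a1 was at 542, 528, 281 and 322 CPM in Olig2+ cells, against 259.9, 247, 216, 232 and 208 CPM in telencephalon (log2 fold change 0.79 ± 0.20 (SE), limma adjusted p = 0.0104) and stayed below 2-fold. Of the 2 genes annotated GAD1, the other decarboxylase, ENSDARG00000027419 was at 697 to 1063 CPM in Olig2+ cells, against 562 to 684 CPM in telencephalon and was not called (0.44 ± 0.14), while the weakly expressed ENSDARG00000093411 was at 30.9, 16.1, 26.5 and 7.84 CPM in Olig2+ cells, against 4.25, 3.85, 1.88, 2.07 and 3.18 CPM in telencephalon (log2 fold change 2.28 ± 0.36 (SE), limma adjusted p = 0.000781). The 2 members that fell included the parvalbumin gene pvalb7 (−2.06 ± 0.23). Whichever library was left out, 17 to 19 members were called higher and 2 lower, and edgeR and DESeq2 each called 21 higher and 2 lower.

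The genotypes differed in this group, and in other neuronal lists too. In mutants 8 of the 39 were higher and 13 lower, where 14.6% and 29.7% of all genes were. For 19 of the 39 the difference between sorted cells and tissue was higher in wildtype than in mutant by limma's test of that difference. Of all genes 22.2% were. For 0 it was lower, where 6.87% were (2 at an unadjusted p under 0.05, and 0 by edgeR). By the same test 22 of 46 pan-neuronal genes were higher in wildtype and 2 lower. Among glutamatergic genes it was 18 of 39 and 1, and among voltage-gated ion channel genes 28 of 64 and 3. For zfhx4 the change was 3.94 ± 0.22 in mutants (limma adjusted p = 2.09e-07), and for dlx2a it was 1.05 ± 0.19 (adjusted p = 0.000713), so both were also called there. For slc32a1 the values were 47.2, 115, 46.3 and 75.8 CPM in mutant Olig2+ cells, against 286, 244, 263, 247 and 209.9 CPM in young mutant telencephalon, a lower level in each sorted library. Against Mpeg1+ cells, 35 of 39 members were higher in Olig2+ cells, where 23.0% of all genes were, with a median of 3.34. By limma's test 0 were lower, where 14.5% of all genes were, and 0 at an unadjusted p under 0.05 or by edgeR.

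Genes listed for glutamatergic neurons, the excitatory neurons of the dorsal telencephalon, were divided. Of 39, 6 were higher and 9 lower, where 9.07% and 9.16% of all genes were, with a median of −0.60. The list also holds glutamate receptor subunit genes, which went in both directions. By edgeR 7 were higher and 6 lower and by DESeq2 7 and 7, and the median was −0.06 without Olig2+ library 4. The summed level was 6261, 7496, 5283 and 4892 CPM in Olig2+ cells, against 9760 to 11100 CPM in telencephalon, with no overlap. EOMES (ENSDARG00000006640), also known as Tbr2, was at 208, 309, 162 and 158 CPM in Olig2+ cells, against 707, 878, 893, 712 and 785 CPM in telencephalon (log2 fold change −1.97 ± 0.19 (SE), limma adjusted p = 5.84e-05). The neuronal transcription factor gene zbtb18 was at 363, 869, 232 and 228 CPM in Olig2+ cells, against 1248, 1348, 1184, 1107 and 1080 CPM in telencephalon (log2 fold change −1.72 ± 0.34 (SE), limma adjusted p = 0.00252), with library 2 the highest of the sorted ones. Also lower were neurod2 (−1.75 ± 0.33), bhlhe22 (−2.04 ± 0.40), the postsynaptic gene NRGN (−1.44 ± 0.21) and the glutamate receptor subunit GRIN1 (ENSDARG00000027828, −1.04 ± 0.11). GRIN1 was no longer past 2-fold without Olig2+ library 4 (−0.98). The 6 that were higher included the LIM homeobox gene lhx9 (1.26 ± 0.22), the receptor subunit genes GRIN2A (1.52 ± 0.23) and gria4a (1.05 ± 0.19), and the homeobox gene prox1a (1.54 ± 0.49). The call of gria4a was lost without Olig2+ library 3 or 4 or telencephalon library 3 (log2 fold change 0.94 to 0.99), and that of prox1a without Olig2+ library 3 or 4 (limma adjusted p = 0.0779 and 0.0812). Without Olig2+ library 3 the higher members numbered 3, without telencephalon library 3 they numbered 4, and without Olig2+ libraries 1 and 3 they numbered 2. With telencephalon libraries 2 and 3 as the only tissue, 4 members were lower. In mutants 4 of 39 were higher and 25 lower, where 14.6% and 29.7% of all genes were.

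**Figure D3:**
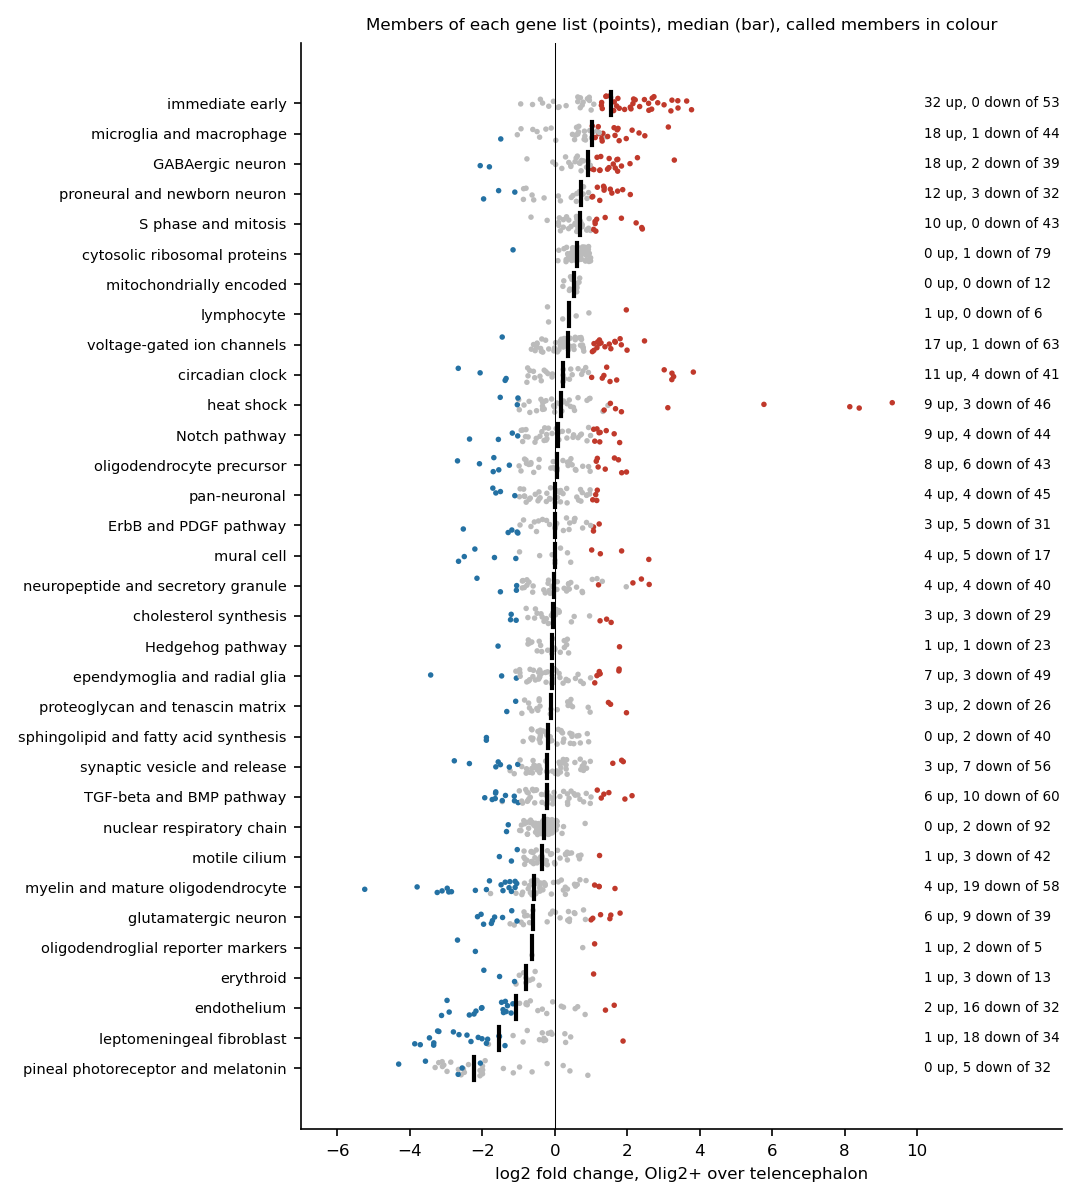
Log2 fold change (x axis) of each tested member of the gene lists (points) in wildtype Olig2+ cells over young wildtype telencephalon, with list medians as bars and called members in colour. The lists of immediate early, microglial and GABAergic genes have the highest medians (1.55, 1.02 and 0.93), and the pineal and leptomeningeal lists the lowest (−2.23 and −1.54).

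Genes that all neurons use did not move as a group. Of 45 pan-neuronal genes 4 were higher and 4 lower, near the 9.07% and 9.16% of all genes, with a median of 0.01. Their summed level was 23110 to 28920 CPM in Olig2+ cells and 25600 to 27340 CPM in telencephalon. The RNA-binding protein gene elavl4 was at 931, 792, 1047 and 871 CPM in Olig2+ cells, against 439, 396, 409, 424 and 402 CPM in telencephalon (log2 fold change 1.13 ± 0.11 (SE), limma adjusted p = 5.84e-05), tight and apart, and its relative elavl3 was at 1181 to 1930 CPM in Olig2+ cells, against 690 to 791 CPM in telencephalon (1.05 ± 0.16). The call of elavl3 was lost without Olig2+ library 1 (0.96) or 3 (0.93). The number of lower members was 7 without Olig2+ library 2, and the number of higher members 6 without Olig2+ library 2 or 4, 2 with telencephalon libraries 2 and 3 only, and 9 by edgeR and by DESeq2. Set against Mpeg1+ cells, 39 of 44 pan-neuronal genes were higher in Olig2+ cells and 1 lower, where 23.0% and 14.5% of all genes were. The median was 3.52 on the log2 scale. Their summed level in the Mpeg1+ libraries was 1977, 7685 and 2544 CPM, with library 2 the highest. For elavl4 the mean was 910 CPM in Olig2+ cells and 79.9 CPM in Mpeg1+ cells.

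Among 56 genes of synaptic vesicles and release, 3 were higher and 7 lower (median −0.22), where 9.07% and 9.16% of all genes were. Both piccolo genes, scaffolds of the presynaptic active zone, were higher, with PCLO at 319, 343, 409 and 254 CPM in Olig2+ cells, against 84.5, 95.5, 122, 119.7 and 119 CPM in telencephalon (log2 fold change 1.600 ± 0.17 (SE), limma adjusted p = 8.36e-05) and pclob at 25.1 to 41.7 CPM in Olig2+ cells, against 7.30 to 10.3 CPM in telencephalon (1.84 ± 0.19). The 2 genes annotated CPLX3, complexins that clamp vesicle fusion, were lower, ENSDARG00000089486 at 16.8, 19.2, 11.3 and 6.30 CPM in Olig2+ cells, against 84.8, 90.1, 109, 87.5 and 84.5 CPM in telencephalon (log2 fold change −2.77 ± 0.27 (SE), limma adjusted p = 4.69e-05) and ENSDARG00000062508 by a similar amount (−2.36 ± 0.27). The third higher member was rims1b (1.89 ± 0.25), a further active zone gene. Leaving out Olig2+ library 4 gave 7 members higher, leaving out libraries 1 and 3 gave 5, and edgeR and DESeq2 called 7 and 8. Among genes of neuropeptides and secretory granules, those lower included tac3b (−2.15 ± 0.28), a tachykinin precursor, and chga (−1.503 ± 0.24), chromogranin A, while cpe, carboxypeptidase E, was at 978 to 2130 CPM in Olig2+ cells, against 2966 to 3360 CPM in telencephalon (−1.05 ± 0.20) and lost its call without Olig2+ library 4 (−0.84). In that list of 40, 4 were higher and 4 lower, near the 9.07% and 9.16% of all genes. Only 1 was called higher when Olig2+ library 1, 3 or 4 or telencephalon library 5 was left out. It was 2 without telencephalon library 2 or 3, and 2 were lower by edgeR and by DESeq2.

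Of 63 voltage-gated ion channel genes, 17 were higher and 1 lower (median 0.37), where 9.07% and 9.16% of all genes were. Among calcium channel subunits, CACNA1E was at 125.97, 101, 118 and 77.3 CPM in Olig2+ cells, against 30.5, 31.1, 24.9, 30.4 and 25.8 CPM in telencephalon (log2 fold change 1.83 ± 0.17 (SE), limma adjusted p = 3.55e-05), and cacna1aa at 178, 214, 133 and 169 CPM in Olig2+ cells, against 57.5, 60.3, 59.0, 65.3 and 48.9 CPM in telencephalon (log2 fold change 1.55 ± 0.15 (SE), limma adjusted p = 6.5e-05). Both genes had groups far apart. The 2 CACNA1B genes, ENSDARG00000079295 (2.48 ± 0.30) and ENSDARG00000021735 (1.99 ± 0.24), were also higher. Without Olig2+ libraries 1 and 3, 9 were higher and 2 lower, and with telencephalon libraries 2 and 3 only, 10 were higher.

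Genes of neurogenic progenitors and newborn neurons were higher in part. Of 32, 12 were higher and 3 lower, where 9.07% and 9.16% of all genes were, with a median of 0.73. The SoxC factor gene sox11a, which marks newborn neurons, was at 139.6, 94.8, 148 and 162 CPM in Olig2+ cells, against 31.8, 34.5, 36.9, 40.6 and 35.3 CPM in telencephalon (log2 fold change 1.87 ± 0.17 (SE), limma adjusted p = 3.39e-05). The tubulin gene tubb5 was at 1586, 1967, 1046 and 2312 CPM in Olig2+ cells, against 497, 507, 538, 608 and 645 CPM in telencephalon (log2 fold change 1.57 ± 0.21 (SE), limma adjusted p = 0.000277), and DCLK1, a doublecortin-like kinase, at 289 to 429.5 CPM in Olig2+ cells, against 128 to 156 CPM in telencephalon (1.34 ± 0.14). INSM1 (ENSDARG00000053301), a zinc finger factor of intermediate progenitors, was also higher (1.73 ± 0.25). The proneural gene ascl1a stayed just under 2-fold, at 53.1, 68.6, 58.3 and 52.1 CPM in Olig2+ cells, against 30.8, 30.1, 26.1, 29.4 and 32.8 CPM in telencephalon (log2 fold change 0.93 ± 0.14 (SE), limma adjusted p = 0.00049). The number of lower members was 6 without Olig2+ library 2. In mutants 5 of 31 were higher and 10 lower, near the 14.6% and 29.7% of all genes. Between the genotypes tubb5 differed by 2.32 ± 0.40 (limma adjusted p = 0.000155).

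Of 43 genes of S phase and mitosis, 10 were higher, where 9.07% of all genes were, with a median of 0.70. By limma's test 0 were lower, where 9.16% of all genes were, and 0 at an unadjusted p under 0.05, by edgeR or by DESeq2. Both of these tools called 21 higher, but of all 17658 genes edgeR also called more higher than limma (2611), as did DESeq2 (2725). The mitotic kinase gene aurka was at 8.91, 5.17, 12.9 and 12.7 CPM in Olig2+ cells, against 0.612, 0.601, 0.645, 1.49 and 1.66 CPM in telencephalon (log2 fold change 2.42 ± 0.28 (SE), limma adjusted p = 0.000135), and the kinetochore gene cenpf at 24.9, 29.0, 28.6 and 9.60 CPM in Olig2+ cells, against 3.13, 3.30, 3.38, 4.72 and 4.08 CPM in telencephalon (log2 fold change 2.24 ± 0.30 (SE), limma adjusted p = 0.000279). The levels were low in both groups, and all sorted libraries lay above the tissue. Cyclin E2, ccne2, was higher as well (1.84 ± 0.34). The summed level was 626, 1060, 723 and 699 CPM in Olig2+ cells and 429 to 536 CPM in telencephalon, with library 2 the highest. Without that library 5 members were higher and 1 lower, and with telencephalon libraries 2 and 3 only, 5 were higher.

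Genes of ependymoglia and radial glia were mixed, with 7 of 49 higher and 3 lower (median −0.09), where 9.07% and 9.16% of all genes were. The progenitor genes PAX6 (ENSDARG00000103379) and nes, the intermediate filament gene nestin, were higher, PAX6 at 52.8, 78.4, 65.0 and 79.5 CPM in Olig2+ cells, against 25.3, 19.8, 16.3, 19.1 and 16.6 CPM in telencephalon (log2 fold change 1.77 ± 0.18 (SE), limma adjusted p = 6.52e-05) and nes at 19.6, 8.36, 14.5 and 9.79 CPM in Olig2+ cells, against 3.77, 1.74, 2.79, 2.97 and 3.79 CPM in telencephalon (log2 fold change 1.77 ± 0.26 (SE), limma adjusted p = 0.000549). Against this, igfbp2a, a growth factor binding protein gene, was at 7.47, 29.9, 11.9 and 11.4 CPM in Olig2+ cells, against 132, 133, 143, 172 and 194 CPM in telencephalon (log2 fold change −3.43 ± 0.32 (SE), limma adjusted p = 3.96e-05), lower in every sorted library. The glial filament gene gfap, chosen after its values had been seen, was at 32.3, 34.6, 29.2 and 26.5 CPM in Olig2+ cells, against 42.9, 40.2, 43.7, 44.1 and 39.0 CPM in telencephalon (log2 fold change −0.45 ± 0.13 (SE), limma adjusted p = 0.0181) and was not called. Glutamine synthetase, glula, was at 1585 to 2230 CPM in Olig2+ cells, against 2256 to 3452 CPM in telencephalon (−0.59 ± 0.16) and the glutamate transporter gene slc1a2b at 455 to 2784 CPM in Olig2+ cells, against 1947 to 2502 CPM in telencephalon (−0.68 ± 0.43), and neither was called. The number lower was 8 without Olig2+ library 2 and 5 without Olig2+ library 3 or telencephalon library 2. The HES1 gene ENSDARG00000006514, a Notch target, was higher (1.102 ± 0.19) but not past 2-fold without Olig2+ library 3 (0.99).

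Transcripts from the coverings of the brain were among those most reduced, and those of its vessels were reduced only in part. Of 34 genes of leptomeningeal fibroblasts, 1 was higher and 18 lower, where 9.07% and 9.16% of all genes were, with a median of −1.54. Retinaldehyde dehydrogenase 2, aldh1a2, was at 2.09, 0.755, 0.321 and 1.06 CPM in Olig2+ cells, against 24.2, 16.7, 23.3, 15 and 26.2 CPM in telencephalon (log2 fold change −3.46 ± 0.26 (SE), limma adjusted p = 1.54e-05). The collagen gene col1a1a, chosen after its values had been seen, was at 0.436, 5.36, 0.945 and 1.49 CPM in Olig2+ cells, against 24.1, 11.4, 27.8, 30.8 and 41.6 CPM in telencephalon (log2 fold change −3.34 ± 0.44 (SE), limma adjusted p = 0.000293). The ependymin gene epd, whose secreted product is abundant in fish meninges, was at 72.4, 3718, 527 and 2221 CPM in Olig2+ cells, against 7330, 4256, 9105, 7320 and 8590 CPM in telencephalon (log2 fold change −3.24 ± 0.92 (SE), limma adjusted p = 0.0174). The sorted libraries spread widely, and the call of epd was lost without library 3 (−3.06, adjusted p = 0.051). The summed level of the list was 495, 4921, 1064 and 2825 CPM in Olig2+ cells, against 5662 to 11850 CPM in telencephalon. Most of the sum in Olig2+ libraries 2 and 4 was epd alone (3718 and 2221 CPM). Other members differed, with col1a1a highest in library 2 of the sorted libraries and aldh1a2 in library 1. The member that was higher was ptgdsb.1, a prostaglandin D2 synthase gene, at 98.2, 81.2, 106 and 86.7 CPM in Olig2+ cells, against 32.9, 28.0, 17.0, 23.0 and 23.5 CPM in telencephalon (log2 fold change 1.88 ± 0.19 (SE), limma adjusted p = 6.1e-05). With telencephalon libraries 2 and 3 as the only tissue, 8 members were lower. Carnosine dipeptidase cndp1, in no list, was at 3.00, 43.6, 14.6 and 10.1 CPM in Olig2+ cells, against 796, 786, 573, 1504 and 1720 CPM in telencephalon (log2 fold change −6.22 ± 0.58 (SE), limma adjusted p = 4.53e-05), and further genes among the largest decreases were the sulfate transporter gene slc13a1 (−5.98 ± 0.21), the organic anion transporter gene oatx (−5.53 ± 0.27), the amino acid transporter gene slc7a8b (−5.01 ± 0.24), the fatty acid binding protein gene fabp7b (−4.88 ± 0.26), the retinol carrier gene rbp4 (−4.76 ± 0.54) and the keratin gene krt4 (−4.29 ± 0.34). For f13a1a.1, coagulation factor XIII, the tissue itself was uneven, at 0.800, 0.162, 1.198 and 0.585 CPM in Olig2+ cells, against 300.3, 28.6, 43.0, 473 and 318 CPM in telencephalon (log2 fold change −6.44 ± 0.77 (SE), limma adjusted p = 0.000166).

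Of 32 endothelial genes, 2 were higher and 16 lower, where 9.07% and 9.16% of all genes were, with a median of −1.07. The vascular endothelial growth factor receptor genes kdrl and flt1 were both lower, kdrl at 5.36, 7.41, 7.46 and 1.57 CPM in Olig2+ cells, against 47.8, 37.9, 42.1, 46.3 and 51.9 CPM in telencephalon (log2 fold change −2.98 ± 0.32 (SE), limma adjusted p = 9.12e-05) and flt1 at 0.364, 3.91, 2.08 and 2.47 CPM in Olig2+ cells, against 20.1, 19.7, 20.1, 23.7 and 21.4 CPM in telencephalon (log2 fold change −2.92 ± 0.31 (SE), limma adjusted p = 8.36e-05). The glucose transporter gene of brain capillaries, slc2a1a, was at 2.11, 11.6, 3.56 and 2.45 CPM in Olig2+ cells, against 44.1, 48.4, 38.3, 40.5 and 42.3 CPM in telencephalon (log2 fold change −3.13 ± 0.35 (SE), limma adjusted p = 0.000119). The endothelial transcription factor genes fli1 (−2.03 ± 0.16), sox7 (−2.18 ± 0.18) and sox18 (−2.01 ± 0.18) were lower too. The members that were higher were the scavenger receptor gene stab1 (1.64 ± 0.29) and mfsd2ab (1.40 ± 0.38), a lipid transporter gene of brain capillaries whose groups overlapped. The most abundant member in the sorted cells was mfsd2ab itself, at a mean of 255 CPM in Olig2+ cells and 85.0 CPM in telencephalon. The summed level of the list was 351 to 644 CPM in Olig2+ cells and 467 to 570 CPM in telencephalon, with overlap. Leaving out Olig2+ library 4 gave 4 members higher, and with telencephalon libraries 2 and 3 only, 10 were lower and 1 higher. In mutants 19 of 31 were lower and 2 higher, where 29.7% and 14.6% of all genes were.

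Of 17 mural cell genes, 4 were higher and 5 lower, with a median of 0.00, where 9.07% of all genes were higher and 9.16% lower. The summed level of the list was 339.2, 329.5, 381.1 and 376.8 CPM in Olig2+ cells, against 207.4 to 270.1 CPM in telencephalon, with no overlap. In Olig2+ libraries 1, 3 and 4 a large part of that sum was the gene rgs5b alone (123, 167 and 234 CPM). The separation of the sums is therefore not one of the list as a whole. The smooth muscle genes acta2, at 1.62, 0.512, 1.89 and 1.09 CPM in Olig2+ cells, against 12.7, 10.1, 10.7, 13.2 and 11.1 CPM in telencephalon (log2 fold change −2.50 ± 0.21 (SE), limma adjusted p = 2.33e-05), and MYH11 (ENSDARG00000009782, −2.66 ± 0.26) were lower, whereas rgs5b, a regulator of G protein signalling found in pericytes, was at 123, 27.4, 167 and 234 CPM in Olig2+ cells, against 10.7, 10.99, 16.6, 27.7 and 25.6 CPM in telencephalon (log2 fold change 2.59 ± 0.55 (SE), limma adjusted p = 0.00392). The call of rgs5b was lost without Olig2+ libraries 1 and 3 (log2 fold change 2.18, limma adjusted p = 0.0626). The higher members numbered 1 without Olig2+ libraries 1 and 3 and 2 with telencephalon libraries 2 and 3 only. Of 42 genes of motile cilia, 1 was higher and 3 lower, and of 13 erythroid genes 1 was higher and 3 lower. The erythroid calls numbered 0 in each direction by limma's test when Olig2+ library 3 or telencephalon library 1 or 2 was left out, and up to 5 lower without Olig2+ library 2. Photoreceptor and melatonin genes of the pineal organ, the light-sensing gland on the roof of the brain, had the lowest median, −2.23, but were uneven in the tissue. Their sum was 523 to 564 CPM in Olig2+ cells, against 2389, 665, 796, 2445 and 3699 CPM in telencephalon, where libraries 2 and 3 were low. Of 32 members 5 were lower and 0 higher (2 at an unadjusted p under 0.05, and 1 by edgeR and by DESeq2). The lower members numbered 19 without telencephalon library 2, 21 without 3, 3 without any of Olig2+ libraries 1 and 3 or telencephalon libraries 4 and 5, 1 without Olig2+ library 4, 23 by edgeR and 25 by DESeq2. With libraries 2 and 3 as the only tissue, 19 members passed the filter and their median was 0.40. The 2 medians thus cover different members and cannot be compared directly. The homeobox gene otx2 was lower in every sorted library, at 5.31, 3.18, 4.202 and 2.101 CPM in Olig2+ cells, against 29.8, 33.3, 17.3, 32.8 and 29.7 CPM in telencephalon (log2 fold change −2.67 ± 0.25 (SE), limma adjusted p = 4.57e-05). In tissue otx2 did not follow the sum of the list, being highest in library 2, where that sum was lowest. The melatonin enzyme gene aanat2, picked for its role after its values had been seen, was at 2.35, 5.07, 3.14 and 3.22 CPM in Olig2+ cells, against 35.5, 3.67, 4.83, 33.7 and 54.4 CPM in telencephalon (log2 fold change −2.06 ± 0.70 (SE), limma adjusted p = 0.0355). Its call was lost without Olig2+ library 1, 3 or 4 or telencephalon library 1, 4 or 5 (limma adjusted p = 0.0757 to 0.0903).

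Transcripts of microglia and macrophages were in part higher in the sorted cells. Of 44 genes, 18 were higher in Olig2+ cells and 1 lower, against 9.07% and 9.16% of all genes, with a median of 1.02. The groups were apart for 10, a smaller share than the 35.1% of all genes. The summed level was 2318, 1019, 1986 and 5749 CPM in Olig2+ cells, against 893 to 1225 CPM in telencephalon, so that library 2 lay within the tissue and library 4 far above it. The galectin-binding protein gene lgals3bpb was at 318, 83.2, 229.5 and 720.1 CPM in Olig2+ cells, against 56.5, 68.4, 38.8, 41.6 and 30.2 CPM in telencephalon (log2 fold change 2.48 ± 0.50 (SE), limma adjusted p = 0.00301). The galectin gene lgals9l1 was at 67.9, 24.4, 49.5 and 102 CPM in Olig2+ cells, against 14.4, 15.3, 9.94, 13.8 and 12.4 CPM in telencephalon (log2 fold change 1.97 ± 0.34 (SE), limma adjusted p = 0.00123), and the amino acid transporter gene slc7a7 at 25.6, 5.39, 16.4 and 34.6 CPM in Olig2+ cells, against 2.89, 2.76, 1.99, 2.13 and 3.41 CPM in telencephalon (log2 fold change 2.32 ± 0.42 (SE), limma adjusted p = 0.00158). In all 3 genes library 2 was the lowest and library 4 the highest of the sorted libraries. The invariant chain gene cd74a was at 295, 97.8, 323 and 1127 CPM in Olig2+ cells, against 92.9, 90.7, 68.2, 113 and 106 CPM in telencephalon, with overlap (log2 fold change 1.77 ± 0.53 (SE), limma adjusted p = 0.0204). The colony-stimulating factor 1 receptor gene csf1ra, chosen after its values had been seen, was at 43.2, 11.1, 22.1 and 9.49 CPM in Olig2+ cells, against 18.8, 3.73, 8.06, 16.1 and 16.2 CPM in telencephalon (log2 fold change 0.66 ± 0.50 (SE), limma adjusted p = 0.307). The apolipoprotein gene apoeb was not called (0.83 ± 0.34, adjusted p = 0.0675), but was without Olig2+ library 2 (1.07, limma adjusted p = 0.0262). The number of higher members was 10 without Olig2+ library 1, 11 without 3, 9 without 4, 4 without 1 and 3, 12 without telencephalon library 2, 11 without 3 and 5 with telencephalon libraries 2 and 3 only. It was 27 without Olig2+ library 2, 28 by edgeR and 29 by DESeq2. What part microglial RNA had in the other differences was not tested. Measured against Mpeg1+ cells, 40 of 47 members were lower in Olig2+ cells, where 14.5% of all genes were, with a median of −4.47, and 0 were higher by limma's test, at an unadjusted p under 0.05 or by edgeR. There lgals3bpb averaged 338 CPM in Olig2+ cells and 9471 CPM in Mpeg1+ cells. In mutants 35 of 46 members were higher in the sort and 3 lower, where 14.6% and 29.7% of all genes were.

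Heat shock genes held the largest increases of all. The HSP70 gene hsp70l was at 25520, 131, 18510 and 9270 CPM in Olig2+ cells, against 17.3, 15.08, 2.79, 4.201 and 3.65 CPM in telencephalon (log2 fold change 9.31 ± 1.34 (SE), limma adjusted p = 0.000477). Library 2, although above the tissue, was far below the other sorted libraries. Its paralogues hsp70.3 (8.40 ± 1.24), HSPA2 (8.25 ± 1.16) and hsp70.1 (8.14 ± 1.19) were higher too, but reads of such near-identical genes may be shared between them and the single values are uncertain. The co-chaperone gene dnajb1b was at 613, 8.38, 487 and 350.1 CPM in Olig2+ cells, against 2.55, 2.16, 1.77, 1.29 and 4.03 CPM in telencephalon (log2 fold change 5.77 ± 1.04 (SE), limma adjusted p = 0.00169), and the HSP90 gene hsp90aa1.2 at 8487, 301, 8926 and 3710 CPM in Olig2+ cells, against 524, 629, 189.7, 276 and 297 CPM in telencephalon (log2 fold change 3.12 ± 0.87 (SE), limma adjusted p = 0.0158), where library 2 fell within the tissue and the call was lost without library 3 (2.60, adjusted p = 0.0539) or 4 (3.02, adjusted p = 0.0552). Over the list of 46, 9 were higher and 3 lower (median 0.17), where 9.07% and 9.16% of all genes were. Without Olig2+ library 2, 15 were higher. The count of higher members was 6 without Olig2+ library 3, and 5 were lower without telencephalon library 4. With telencephalon libraries 2 and 3 only, 5 were higher and 1 lower, edgeR called 14 higher and DESeq2 15. The summed level was 54800, 5253, 46190 and 26110 CPM in Olig2+ cells, against 5231 to 7140 CPM in telencephalon. In mutants 18 of 46 were higher and 5 lower, where 14.6% and 29.7% of all genes were. There hsp70l was at 5574, 6028, 3650 and 5626 CPM in mutant Olig2+ cells, against 6.10, 3.84, 4.27, 5.11 and 3.40 CPM in young mutant telencephalon. Against Mpeg1+ cells hsp70l was not called (0.97 ± 1.73, limma adjusted p = 0.696), with 8711, 526 and 3439 CPM in the 3 Mpeg1+ libraries.

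Immediate early genes, which cells transcribe within minutes of a stimulus, were the list with the largest share of members called higher. Of 53, 32 were higher and 0 lower by limma's test (1 lower at an unadjusted p under 0.05, and 0 by edgeR and by DESeq2), with a median of 1.55. Of all genes 9.07% were higher. The groups were apart for 14, a smaller share than the 35.1% of all genes. The transcription factor gene atf3 was at 515, 19.5, 423 and 242 CPM in Olig2+ cells, against 7.34, 6.01, 19.2, 18.6 and 16.9 CPM in telencephalon (log2 fold change 3.77 ± 0.83 (SE), limma adjusted p = 0.00498). The AP-1 subunit gene fosb was at 590.1, 36.7, 645 and 225 CPM in Olig2+ cells, against 9.79, 12.02, 27.1, 24.1 and 25.2 CPM in telencephalon (log2 fold change 3.64 ± 0.73 (SE), limma adjusted p = 0.00307), and the activity-regulated factor gene npas4a, chosen after its values had been seen, at 3162, 214, 1529 and 1068 CPM in Olig2+ cells, against 22.8, 39.0, 214, 215 and 199.6 CPM in telencephalon (log2 fold change 3.39 ± 0.87 (SE), limma adjusted p = 0.0103). Library 2 was the lowest sorted library in each, and telencephalon libraries 1 and 2 were below 3, 4 and 5. The summed level was 22070, 4406, 16810 and 18110 CPM in Olig2+ cells, against 2472, 2641, 5389, 5328 and 4928 CPM in telencephalon, so that library 2 lay within the range of the tissue. Without Olig2+ libraries 1 and 3, 9 were higher and 1 lower, and with telencephalon libraries 2 and 3 only, 7 were higher. In mutants 18 were higher and 12 lower, where 14.6% and 29.7% of all genes were. Against Mpeg1+ cells 6 of 53 were higher in Olig2+ cells and 11 lower, where 23.0% and 14.5% of all genes were, with a median of −0.07. The summed level in the Mpeg1+ libraries was 29320, 11050 and 31300 CPM, so high levels of these genes were not particular to Olig2+ cells. Dissociation and sorting cannot be told apart from the cell population here.

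**Figure D4:**
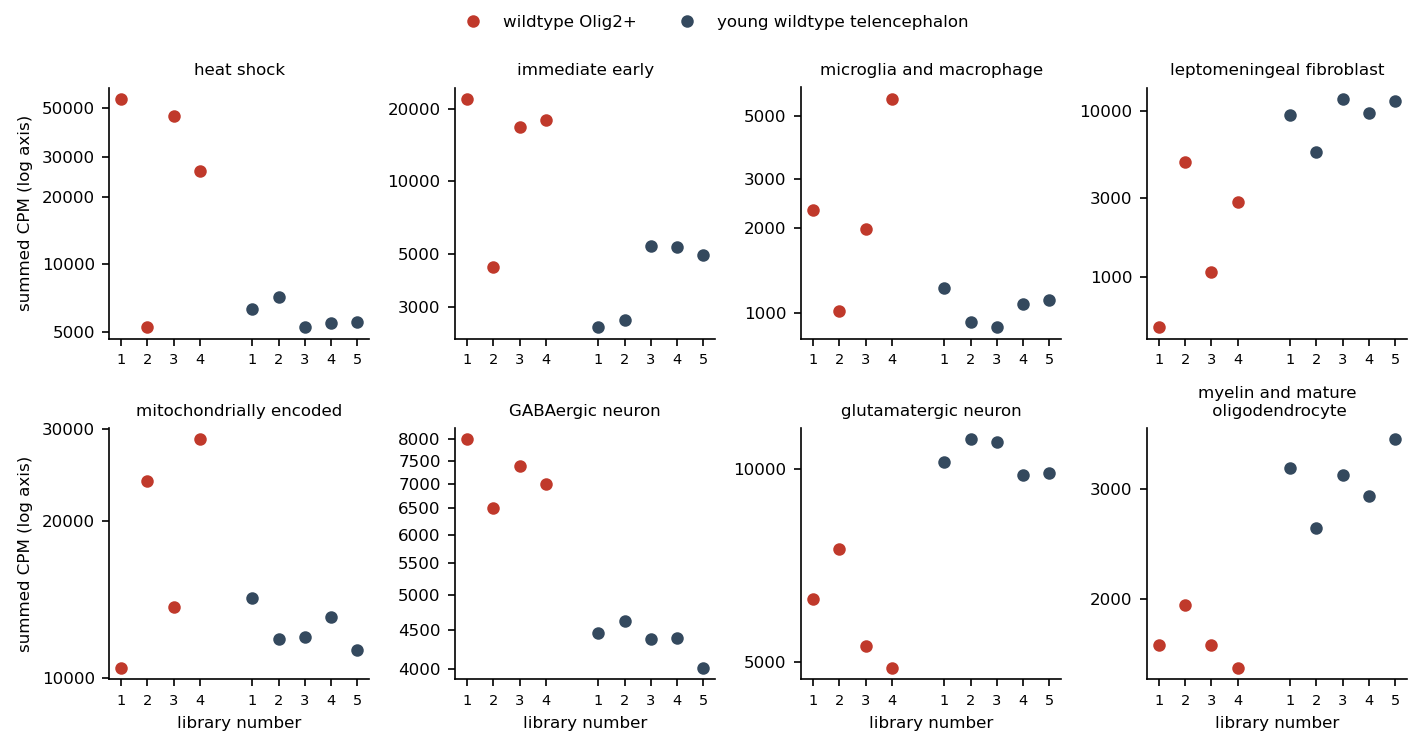
Summed CPM (log axes) of 8 gene lists in each wildtype Olig2+ library (left) and young wildtype telencephalon library (right). Olig2+ library 2 lies at 5253 CPM for heat shock genes while libraries 1, 3 and 4 lie at 26110 CPM or more; for GABAergic, glutamatergic and myelin genes the 2 groups do not overlap.

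Some genes of the circadian clock were among those with large differences between sorted cells and tissue. This list was added after the values had been seen. Of 41, 11 were higher, against 9.07% of all genes, 4 were lower, near the 9.16% of all genes, and 26 were not called (median 0.23). The clock repressor gene ciarta was at 134, 117, 154 and 73.1 CPM in Olig2+ cells, against 5.33, 5.23, 8.49, 7.56 and 10.6 CPM in telencephalon (log2 fold change 3.82 ± 0.25 (SE), limma adjusted p = 8.32e-06). The nuclear receptor gene nr1d1, which represses the activating arm of the clock, was at 191, 148, 211 and 94.9 CPM in Olig2+ cells, against 14.1, 13.1, 18.4, 12.7 and 17.4 CPM in telencephalon (log2 fold change 3.28 ± 0.23 (SE), limma adjusted p = 9.96e-06). In both genes every sorted library lay far above every tissue library. The period genes per1a, at 53.2, 93.8, 70.7 and 12.5 CPM in Olig2+ cells, against 3.47, 3.00, 4.24, 3.75 and 6.21 CPM in telencephalon (log2 fold change 3.23 ± 0.48 (SE), limma adjusted p = 0.000533), and per3, at 133, 46.4, 102 and 22.8 CPM in Olig2+ cells, against 6.86, 4.69, 7.68, 4.52 and 5.31 CPM in telencephalon (log2 fold change 3.23 ± 0.43 (SE), limma adjusted p = 0.000308), were also higher, with library 4 the lowest of the sorted libraries. The activating factor gene arntl1a was lower, at 40.7, 35.5, 42.2 and 73.1 CPM in Olig2+ cells, against 110.2, 116, 120.5, 132 and 124 CPM in telencephalon (log2 fold change −1.37 ± 0.19 (SE), limma adjusted p = 0.000405), as was the cryptochrome gene cry3b, at 42.2, 18.9, 27.1 and 24.9 CPM in Olig2+ cells, against 164, 178, 164, 204 and 182 CPM in telencephalon (log2 fold change −2.67 ± 0.20 (SE), limma adjusted p = 1.49e-05). Higher, too, were nr1d2b (1.71 ± 0.20), the CLOCK-interacting gene cipca (3.02 ± 0.36) and cry2 (1.43 ± 0.23), and lower was cry4 (−1.34 ± 0.14). Without Olig2+ libraries 1 and 3, 6 were higher and 9 lower, and with telencephalon libraries 2 and 3 only, 7 were higher. The time of day at which fish were taken is not given in the sources used here.

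In mutant fish fewer clock genes were called higher. There 2 of 41 clock genes were higher and 21 lower, where 14.6% and 29.7% of all genes were. For 24 of the 41 the difference between sorted cells and tissue was higher in wildtype than in mutant by limma's test of that difference, against 22.2% of all genes. For 0 it was lower by limma's test, at an unadjusted p under 0.05 or by edgeR. The gene ciarta was at 117, 32.8, 76.3 and 55.5 CPM in mutant Olig2+ cells, against 34.3, 54.3, 51.9, 42.4 and 48.1 CPM in young mutant telencephalon (0.47 ± 0.32, limma adjusted p = 0.235), and nr1d1 at 51.3, 13.4, 33.3 and 35.9 CPM in mutant Olig2+ cells, against 28.1, 47.2, 40.3, 32.8 and 46.7 CPM in young mutant telencephalon (−0.33 ± 0.34, adjusted p = 0.434). Mutant tissue lay above wildtype tissue in both genes, and mutant Olig2+ cells below wildtype Olig2+ cells for nr1d1. The genotypes differed by 3.35 ± 0.43 for ciarta (limma adjusted p = 8.08e-06), 3.61 ± 0.43 for nr1d1 (adjusted p = 3.96e-06), 3.81 ± 0.59 for per1a (adjusted p = 6.27e-05) and 2.50 ± 0.50 for per3 (adjusted p = 0.000656). By contrast arntl1a and cry3b were lower in the sorted cells of both genotypes, at −2.48 and −3.34 in mutants. In the 3 Mpeg1+ libraries ciarta was at 55.2, 36.1 and 251 CPM and nr1d1 at 130.2, 102 and 619 CPM. Neither was called between the sorted populations, at 0.52 ± 0.61 (SE) for ciarta and −0.39 ± 0.60 for nr1d1 on the log2 scale. The Mpeg1+ libraries spread widely, so a difference may still exist.

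**Figure D5:**
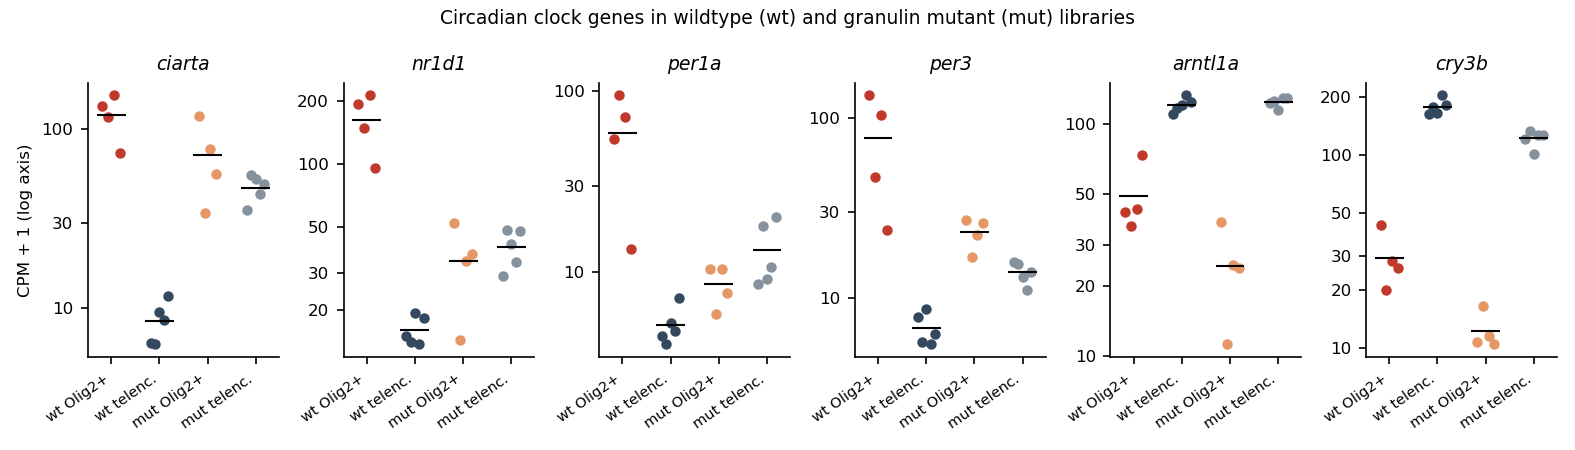
CPM + 1 on a log axis of 6 circadian clock genes in each library of wildtype (wt) Olig2+ cells and telencephalon and mutant (mut) Olig2+ cells and telencephalon (points; bars, group means). For ciarta, nr1d1, per1a and per3 all wildtype Olig2+ libraries lie above wildtype telencephalon, while the 2 mutant groups overlap for ciarta, nr1d1 and per1a.

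The signalling pathways known to act on oligodendrocyte precursors were examined next. In the Notch pathway, through which neighbouring cells hold each other undifferentiated, 9 of 44 genes were higher and 4 lower (median 0.07). Of all genes 9.07% were higher and 9.16% lower. The ligand gene dlc was at 27.7, 37.5, 26.7 and 21.9 CPM in Olig2+ cells, against 6.63, 5.83, 6.72, 8.14 and 10.19 CPM in telencephalon (log2 fold change 1.79 ± 0.20 (SE), limma adjusted p = 0.000119), and the ligand gene dll4 was also higher (1.42 ± 0.28). Of the targets, hey2 was at 1.47, 2.37, 2.63 and 2.74 CPM in Olig2+ cells, against 8.63, 9.01, 8.60, 6.72 and 10.48 CPM in telencephalon (log2 fold change −1.56 ± 0.18 (SE), limma adjusted p = 0.000154), lower throughout. The number of higher members was 5 without Olig2+ library 1, 3 without 1 and 3 and 2 with telencephalon libraries 2 and 3 only. The number of lower members was 8 without Olig2+ library 2, 2 without 4 and 1 with telencephalon libraries 2 and 3 only.

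In the Hedgehog pathway, which induces olig2 in the embryo, 1 of 23 genes was higher and 1 lower. For this list and the next lists, the shares of all genes were again 9.07% higher and 9.16% lower. The inhibitory receptor gene gpr161 was at 23.1, 62.9, 15.8 and 26.5 CPM in Olig2+ cells, against 77.5, 141, 93.9, 64.1 and 67.4 CPM in telencephalon (log2 fold change −1.57 ± 0.36 (SE), limma adjusted p = 0.00594), a call that was lost without Olig2+ libraries 1 and 3 (−1.04, adjusted p = 0.0794). Of 31 genes of ErbB and PDGF signalling, 3 were higher and 5 lower (median 0.01). The ligand gene pdgfbb, made by endothelium, was at 0.636, 1.21, 0.624 and 0.505 CPM in Olig2+ cells, against 9.01, 9.07, 7.79, 9.31 and 9.62 CPM in telencephalon (log2 fold change −2.53 ± 0.16 (SE), limma adjusted p = 7.5e-06), and the NRG2 gene ENSDARG00000077818, a neuregulin, was higher (1.22 ± 0.22) but not past 2-fold without Olig2+ library 1 (0.98). Without library 1 the count of higher members was 0 by limma's test, with telencephalon libraries 2 and 3 only it was 0 with 1 lower, and by edgeR and DESeq2 it was 6 with 3 lower. The lower members numbered 2 without library 4 and 3 without telencephalon library 3. Of 60 genes of TGF-beta and BMP signalling, 6 were higher and 10 lower (median −0.23). The receptor gene tgfbr1b was at 22.8, 14.2, 14.6 and 8.85 CPM in Olig2+ cells, against 2.17, 2.94, 1.56, 2.78 and 3.37 CPM in telencephalon (log2 fold change 2.13 ± 0.26 (SE), limma adjusted p = 0.000173), whereas the second receptor TGFBR2 (−1.65 ± 0.20), the effector smad1, at 15.6, 17.1, 16.6 and 11.3 CPM in Olig2+ cells, against 58.1, 46.2, 49.2, 52.6 and 54.6 CPM in telencephalon (log2 fold change −1.73 ± 0.15 (SE), limma adjusted p = 3.47e-05), the ligand BMP7 (−1.63 ± 0.21) and the latent binding protein ltbp3 (−1.94 ± 0.25) were lower. With telencephalon libraries 2 and 3 only, 4 were lower, and edgeR and DESeq2 each called 10 higher.

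Metabolic and housekeeping groups changed little at the threshold. In cholesterol synthesis, which supplies myelin, 3 of 29 were higher and 3 lower, near the 9.07% and 9.16% of all genes. The sterol sensor genes insig1, at 307, 91.7, 297 and 184 CPM in Olig2+ cells, against 44.9, 60.9, 70.8, 81.9 and 84.3 CPM in telencephalon (log2 fold change 1.55 ± 0.34 (SE), limma adjusted p = 0.00448), and scap (1.25 ± 0.26) were higher, and their transcription factor gene srebf2 was lower (−1.21 ± 0.30), a call lost without Olig2+ library 3 (−0.98). Without that library 1 member was lower, without libraries 1 and 3 1 was higher, and with telencephalon libraries 2 and 3 only there were 0 in each direction by limma's test. By edgeR 3 were higher and 0 lower, and by DESeq2 3 and 1. Of 40 genes of sphingolipid and fatty acid synthesis, 0 were higher by limma's test (6 at an unadjusted p under 0.05, 2 by edgeR and 3 by DESeq2) and 2 lower, among them ugt8. Of 92 nuclear genes of the respiratory chain, 0 were higher by limma's test, at an unadjusted p under 0.05, by edgeR or by DESeq2, and 2 were lower. The median of −0.31 was −0.12 without Olig2+ library 1, −0.54 without library 4 and 0.14 without libraries 1 and 3. Those that were lower were sdha, at 414, 352, 297 and 285 CPM in Olig2+ cells, against 859.6, 935, 842, 805 and 775 CPM in telencephalon (log2 fold change −1.33 ± 0.13 (SE), limma adjusted p = 6.1e-05), and ndufa4b (−1.29 ± 0.14). For 79 cytosolic ribosomal protein genes the median was 0.62, and the groups were apart for 50, where they were for 35.1% of all genes. Yet 0 passed 2-fold higher by limma's test and 1 was lower, where 9.07% and 9.16% of all genes were. At an unadjusted p under 0.05, 67 were higher, and edgeR called 18 and DESeq2 19. The count of higher ribosomal genes was 14 without Olig2+ library 1 and 22 without libraries 1 and 3. In mutants it was 53 of 79, where 14.6% of all genes were higher. Of 12 mitochondrially encoded genes, 0 were called by limma's test, edgeR or DESeq2, with 4 higher at an unadjusted p under 0.05 and log2 fold changes of 0.22 to 0.69. Of these, 8 were called higher without Olig2+ libraries 1 and 3. In MT-CO1 the levels were 3505, 7149, 4302 and 8471 CPM in Olig2+ cells, against 4979, 3872, 4059, 3988 and 3796 CPM in telencephalon, so that libraries 2 and 4 lay above the tissue and 1 below it.

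The granulin genes, whose loss defines the mutants of the series, were not called between wildtype Olig2+ cells and telencephalon by limma's test, with 1 higher and 1 lower of the 3 at an unadjusted p under 0.05 and 1 higher by edgeR and by DESeq2. The level of grna (ENSDARG00000004954) was 85.8, 30.2, 57.1 and 82.0 CPM in Olig2+ cells, against 44.8, 26.6, 19.6, 36.4 and 34.3 CPM in telencephalon (log2 fold change 0.90 ± 0.32 (SE), limma adjusted p = 0.0418). It was called higher when Olig2+ library 2 (1.22) or telencephalon library 1 (1.03) was left out. For grnb (ENSDARG00000025081) the levels were 20.4, 15.202, 22.3 and 15.24 CPM in Olig2+ cells, against 45.9, 33.8, 39.1, 20.9 and 40.2 CPM in telencephalon (log2 fold change −0.91 ± 0.23 (SE), limma adjusted p = 0.00947), and it was called lower without Olig2+ library 3 (−1.01) or telencephalon library 4 (−1.09). The third member, grn1, was at 2.16, 0.593, 3.38 and 5.13 CPM in Olig2+ cells, against 6.15, 1.32, 0.430, 13.2 and 2.23 CPM in telencephalon, with wide overlap (log2 fold change −0.25 ± 0.63 (SE), limma adjusted p = 0.771). In Mpeg1+ cells grna was at 2266, 1315 and 3332 CPM, so that it was lower in Olig2+ cells (log2 fold change −5.16 ± 0.45, limma adjusted p = 0.000154), and there the microglial genes described above were higher too. For grnb the Mpeg1+ libraries were at 14.7, 2.23 and 13.5 CPM, and Olig2+ and Mpeg1+ cells were not called apart (1.07 ± 0.57, limma adjusted p = 0.172). In mutants, whose alleles shift the reading frame and so need not remove the transcript, grna was at 88.2, 65.9, 55.6 and 76.2 CPM in mutant Olig2+ cells, against 28.4, 21.5, 21.7, 13.97 and 24.1 CPM in young mutant telencephalon (1.67 ± 0.23, limma adjusted p = 9.26e-05).

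Over the whole table the mutant fish gave 2644 genes higher in sorted cells (14.6%) and 5378 lower (29.7%), the median log2 fold change being −0.31. By edgeR 4447 were higher and 4268 lower. Mitochondrial reads made up 3.45, 8.59, 4.33 and 5.30% of mutant Olig2+ libraries, against 1.05 to 2.86% of wildtype Olig2+ libraries, and all 12 mitochondrially encoded genes were higher in the mutant sort than in mutant tissue. Mutant Olig2+ library 2 stood apart, with Spearman correlations of 0.81 to 0.84 with the other 3, which reached 0.92 to 0.93 among themselves. The part of RNA quality in the genotype differences was not tested. The difference between sorted cells and tissue was itself higher in wildtype for 4006 genes (22.2%) and lower for 1237 (6.87%) by limma's test of the difference. Genes called in both genotypes in the same direction included zfhx4, sox11a (2.51 in mutants), rn7sk and hsp70l on the higher side and mpz, plp1b, slc13a1, kdrl and aldh1a2 on the lower side. The lower count was 2009 without mutant Olig2+ library 2 and 2456 by edgeR. Set against Mpeg1+ cells, 4240 genes were higher in Olig2+ cells (23.0%) and 2663 lower (14.5%), while edgeR called 2279 higher and 3088 lower, and by limma 4003 were lower without Mpeg1+ library 2.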

How the data were processed

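Whole-transcriptome libraries were made with SMART-Seq v4 and MicroPlex v2. Per the labels and methods, the authors aligned reads with STAR to GRCz10 and deposited gene counts divided by a DESeq2 size factor (DESeq2 3.9 in the submitters' processing notes), separately for each table, as a normalised count signal. All values of the libraries used returned whole reads (relative tolerance 1e-06). Each library was rescaled to CPM of its own sum over all its genes, which cancels the size factor. Depth ranged from 6107892 reads in an Mpeg1+ library to 59252761 in an Olig2+ library, and limits low genes most.

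Genes listed for cells and tissue with a mean of both group means of at least 1 CPM were tested with limma 3.58.1 (trend, robust) on log2(CPM + 1) with Benjamini-Hochberg adjustment, and edgeR 4.0.16 and DESeq2 1.42.0 were run on the recovered reads. Tests were tried on simulated data: in the comparison of wildtype Olig2+ cells with telencephalon (17646 genes), 18 of 67 genes changed 2-fold were called, 63 of 67 changed 4-fold and 65 of 66 changed 8-fold. No other genes were changed in the simulation, far fewer than were called in the data.

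Symbols came from the study's tables (3828) and from a gene name table (17937), and 1715 identifiers had none. The members and the 34 gene lists were chosen with earlier results of these data known, and the clock list, the comparison of the genotypes' differences and the fit without Olig2+ libraries 1 and 3 were added after the data had been seen. Genes named were the 5 markers, 15 genes per direction with the greatest called change, groups apart and at least 20 CPM in the higher group, from every list the 6 members or fewer of lowest p, the 3 most abundant members of each list of another cell type, the 10 most abundant genes, and all granulins and mitochondrial genes. In addition, 30 genes were named after their values had been seen, among them nfasca, anln, BIN1 (ENSDARG00000042114), tcf7l2, dlx5a, DLX6, LHX6, LHX8, slc32a1, calb1, GAD1 (ENSDARG00000093411), pvalb7, zbtb18, neurod2, bhlhe22, prox1a, rims1b, dll4, sdc4, gpc4, arntl1a and cry2. Some genes that the rule selects are not reported here.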

Additional observations from a re-analysis of the deposited data

Results flagged for a closer look

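The difference between sorted Olig2+ cells and tissue differed between the genotypes for many genes, by limma's test of that difference. It was higher in wildtype than in mutant fish for 4006 genes and lower for 1237, and edgeR gave 3044 and 2456. Mutant Olig2+ libraries held 3.45 to 8.59% mitochondrial reads, against 1.05 to 2.86% in wildtype Olig2+ libraries, and mutant library 2 stood apart from its group. Without that library 3844 genes were higher in wildtype and 2009 lower. Among clock genes the difference of the log2 fold changes was 3.352 for ciarta, 3.608 for nr1d1, 3.811 for per1a and 2.503 for per3. The time of collection of each library is not given in the sources used here, and its part was not tested.

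One library stood apart within its group. The summed level of genes of sphingolipid and fatty acid synthesis was 1773, 1735 and 1790 CPM in wildtype Olig2+ libraries 1 to 3 and 1463 CPM in library 4, a gap past Dixon's critical value for 4 libraries. It was 1 of 70 groups of libraries so examined, where chance gives about 1 in 20.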

How the results depend on the processing

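No gene selected for naming reversed its direction as a call. Some balances did turn: the clock list of 11 higher and 4 lower gave 6 and 9 without Olig2+ libraries 1 and 3, and the glutamatergic list of 6 and 9 gave 7 and 6 by edgeR. The pineal median of −2.23 over 32 members was 0.40 with telencephalon libraries 2 and 3 only. That median covered only the 19 members that then passed the filter, so part of the shift can come from the change of members. Of 193 called genes that were selected for naming, 166 were called whichever library was left out and 121 under every alternative in which they were tested. The filter at 10 CPM tested only 149 of the 193. The fit with telencephalon libraries 2 and 3 only and that without Olig2+ libraries 1 and 3 each tested 192. With wildtype Olig2+ cells against telencephalon, 1602 genes were higher and 1618 lower. A pseudocount of 4 CPM gave 821 and 1031, a filter at 10 CPM 781 and 1058, and telencephalon libraries 2 and 3 as the only tissue 905 and 799. By edgeR 2611 and by DESeq2 2725 genes were higher. The filter and the smaller tissue group enter fewer genes or libraries, and the cause of the other shifts was not tested. Leaving out single libraries gave 1383 to 1866 higher and 1441 to 2065 lower. Scaling by TMM gave 1748 and 1454, and median-of-ratios factors 1840 and 1375. In mutants edgeR called 4447 genes higher and 4268 lower, against 2644 and 5378 by limma. Against Mpeg1+ cells edgeR called 2279 genes higher and 3088 lower, against 4240 and 2663 by limma, and leaving out single libraries gave 2143 to 4003 lower, the last without Mpeg1+ library 2. For the difference between genotypes edgeR called 3044 higher and 2456 lower and leaving out single libraries gave 982 to 2009 lower, the last without mutant Olig2+ library 2. The share of mitochondrial reads differed by 0.351 to 0.956 percentage points when single libraries were left out.

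Samples were treated as unpaired, since sorted cells and tissue came from different fish lines. Same-numbered libraries of cells and tissue deviated with correlations of −0.09 to 0.04, and those with unlike numbers with −0.174 to 0.135. These few correlations alone cannot show whether numbers pair samples. With the replicate number as a block, 1581 genes were higher and 1532 lower. The comparison rests on 4 and 5 libraries. On simulated data 18 of 67 genes changed 2-fold were called, and 63 of 67 changed 4-fold. A call itself needs a fitted change of at least 2-fold. The count at 2-fold therefore cannot tell how far the number of libraries limits detection, and smaller changes go mostly uncalled by the threshold alone. For the difference between genotypes 4 of 67 changed 2-fold were called, and against Mpeg1+ cells 0 of 67 changed 2-fold, 6 of 67 changed 4-fold and 33 of 66 changed 8-fold, so that a gene not called there may still differ. Each simulation changed far fewer genes than were called in the data. With few changed genes the Benjamini-Hochberg adjustment makes a call harder, so the simulated counts are not the shares detected in the data. Wildtype Olig2+ libraries were deeper than the tissue, and reads were not thinned.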

Other observations

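Among genes of proteoglycans and the tenascin matrix, 3 of 26 were higher in wildtype Olig2+ cells and 2 lower. Of all genes 9.07% were higher and 9.16% lower. The median of the log2 fold changes of the list was −0.12. Beside NCAN, the link protein gene hapln1a, which ties hyaluronan to such proteoglycans, was at 62.7, 95.2, 98.5 and 58.5 CPM in Olig2+ cells, against 20.1, 15.6, 43.5, 26.0 and 38.9 CPM in telencephalon (log2 fold change 1.48 ± 0.30 (SE), limma adjusted p = 0.00326). All sorted libraries lay above all tissue libraries. The syndecan gene sdc4, at 333, 48.4, 256 and 203 CPM in Olig2+ cells, against 60.8, 53.3, 51.6, 64.0 and 61.8 CPM in telencephalon, was higher as well (log2 fold change 1.54 ± 0.45 (SE), limma adjusted p = 0.0189), but library 2 lay below the tissue, and the call was lost without Olig2+ library 1, 3 or 4 (limma adjusted p = 0.0575 to 0.0623). The glypican gene gpc4 was lower, at 28.2, 49.6, 39.1 and 13.8 CPM in Olig2+ cells, against 71.0, 60.7, 73.1, 85.5 and 93.2 CPM in telencephalon (log2 fold change −1.33 ± 0.31 (SE), limma adjusted p = 0.0063), and fell just short of 2-fold without Olig2+ library 4 (−0.98). In mutants NCAN was at 14.7, 10.1, 11.1 and 16.0 CPM in mutant Olig2+ cells, against 22.5, 12.8, 18.3, 14.8 and 19.0 CPM in young mutant telencephalon and was not called (−0.40). Without Olig2+ library 3, 3 members were lower. Without Olig2+ library 2, 4 were lower, and without library 4 the count was 0 by limma's test. With telencephalon libraries 2 and 3 only, 1 was higher and 1 lower.

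Of 6 lymphocyte genes that passed the filter, 1 was higher, where 9.07% of all genes were. It was the chemokine receptor gene ccr9a, at 12.04, 2.91, 19.6 and 10.8 CPM in Olig2+ cells, against 1.97, 1.502, 1.18, 2.33 and 1.61 CPM in telencephalon (log2 fold change 1.97 ± 0.40 (SE), limma adjusted p = 0.00293). By limma's test 0 of the 6 were lower, where 9.16% of all genes were, and 0 at an unadjusted p under 0.05, by edgeR or by DESeq2.

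The most abundant feature of the sorted libraries was ENSDARG00000080337, to which no name was matched, at 27970, 66830, 29430 and 39560 CPM in Olig2+ cells, against 10640, 9257, 9781, 9441 and 11040 CPM in telencephalon (log2 fold change 1.94 ± 0.22 (SE), limma adjusted p = 0.000135). The nuclear noncoding RNA malat1 was next, at 17560, 22310, 30490 and 34730 CPM in Olig2+ cells, against 10730, 13960, 13790, 13490 and 11820 CPM in telencephalon, a change just short of 2-fold (log2 fold change 1.00 ± 0.19 (SE), limma adjusted p = 0.00221) that passed it without Olig2+ library 1 or 2 or telencephalon library 2, 3 or 4 (1.02 to 1.18). The noncoding RNA rn7sk, which holds the elongation factor P-TEFb inactive, was at 48.5, 684, 99.7 and 284 CPM in Olig2+ cells, against 0.748, 1.14, 0.967, 1.29 and 1.28 CPM in telencephalon (log2 fold change 6.41 ± 0.61 (SE), limma adjusted p = 4.53e-05). All 3 lay higher in every wildtype Olig2+ library than in every wildtype tissue library. The level of rn7sk was 139, 4436 and 449 CPM in the Mpeg1+ libraries, and it was not called between the sorted populations (log2 fold change −1.89 ± 1.18 (SE), limma adjusted p = 0.242). In mutants, too, rn7sk was higher in sorted cells than in tissue (4.92 ± 0.48). Having no name, ENSDARG00000080337 could not be counted among the mitochondrially encoded genes, whatever its origin.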
